A study of Homo sapiens with 6 samples.

Results

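The 35 genes described here act in homologous recombination, the Fanconi anaemia pathway and the DNA damage checkpoint, and were chosen by name. Earlier results of these data were known at that choice, so the members' shares beside those of all genes are description only. All probes whose only gene symbol is exactly one of these names were taken. They were 52 probes of 31 genes, and 28 of these genes were bright enough to be tested among the 12334 tested of the 20046 genes named on the array. BRCA2, RBBP8, FANCA and FANCD2 have no such probe and were not analysed here. RAD50, FANCF and FANCM have probes whose mean lay under the intensity filter, the median of all probe means (log2 1.76).

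The arrays compare cells of KG1a, an established line from a human acute myeloid leukaemia, given the agent 7l at 2 µM for 24 h (3 arrays) with control cells of the same line (3 arrays). The agent is known here only by this code name, and the labels do not state the controls' vehicle or culture time. All cells grew in medium with heat-inactivated serum. Total RNA was hybridised to Illumina bead arrays as biotinylated cRNA, and the values below are log2 of the deposited probe intensity. Nothing in the labels says that the cells behind the 3 arrays of a group were grown apart, so the p-values below rest on array-to-array spread that may be technical.

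Homologous recombination mends broken DNA with the sister chromatid as a template. BRCA1 with its partner BARD1, and then PALB2 with BRCA2, act on resected DNA ends to start strand exchange, and cofactors such as XRCC2 and XRCC3 and the RAD54 motor proteins assist it. The Fanconi core complex marks FANCD2 and FANCI with ubiquitin at DNA crosslinks, and inherited loss of its genes causes bone marrow failure and a high risk of myeloid leukaemia. At stalled replication forks TOPBP1 activates the kinase ATR, and claspin (CLSPN) lets ATR switch on CHEK1, whereas ATM and CHEK2 answer to breaks. Many of these genes are transcribed around S phase under E2F factors.

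The promoters of the members with the smallest p-values, and of XRCC2, are shown first, since the letters searched for in them recur below. Each window, from the RefSeq table on GRCh38.p14, runs from 250 bases before to 50 bases after a transcript start. Capitals mark an E2F-type match (close to the sites bound by E2F factors, with TTGGCGC as the first form searched, TTCCCGC as the second form and TTCGCGC as the last), a CHR match (TTTGAA, or the variant form TTCGAA, the cell cycle element of many mitotic genes) or CCAAT (the letters bound by NF-Y), on either strand. FANCE lies at chr6:35452088-35452387 (plus strand), MSH6 at chr2:47782895-47783194 (plus strand), CLSPN at chr1:35769929-35770228 (minus strand) and FANCL at chr2:58241276-58241575 (minus strand). CHEK1 lies at chr11:125626106-125626405 (plus strand), BARD1 at chr2:214809634-214809933 (minus strand) and XRCC2 at chr7:152676092-152676391 (minus strand). The first 6 are the members with the smallest p-values, and XRCC2 is the member whose treated arrays all lay above control. Where a gene has several windows (4 for MSH6, 3 for CHEK1), the one with the most matches is printed.
FANCE: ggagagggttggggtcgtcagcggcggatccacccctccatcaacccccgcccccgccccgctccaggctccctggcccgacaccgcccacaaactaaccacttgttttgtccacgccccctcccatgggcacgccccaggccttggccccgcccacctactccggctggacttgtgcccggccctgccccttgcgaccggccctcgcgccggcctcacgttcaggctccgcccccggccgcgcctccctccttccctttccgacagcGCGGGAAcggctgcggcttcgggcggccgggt
MSH6: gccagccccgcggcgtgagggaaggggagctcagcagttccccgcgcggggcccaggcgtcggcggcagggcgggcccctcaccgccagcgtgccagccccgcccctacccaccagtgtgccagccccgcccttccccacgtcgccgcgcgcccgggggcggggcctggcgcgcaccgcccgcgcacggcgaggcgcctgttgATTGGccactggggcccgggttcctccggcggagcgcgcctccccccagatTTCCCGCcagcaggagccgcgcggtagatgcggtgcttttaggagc
CLSPN: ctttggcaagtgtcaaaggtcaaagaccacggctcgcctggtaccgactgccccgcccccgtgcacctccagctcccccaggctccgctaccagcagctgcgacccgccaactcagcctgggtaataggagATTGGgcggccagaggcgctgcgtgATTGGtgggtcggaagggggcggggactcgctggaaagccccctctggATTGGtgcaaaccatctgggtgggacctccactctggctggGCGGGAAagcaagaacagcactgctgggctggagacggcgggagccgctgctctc
FANCL: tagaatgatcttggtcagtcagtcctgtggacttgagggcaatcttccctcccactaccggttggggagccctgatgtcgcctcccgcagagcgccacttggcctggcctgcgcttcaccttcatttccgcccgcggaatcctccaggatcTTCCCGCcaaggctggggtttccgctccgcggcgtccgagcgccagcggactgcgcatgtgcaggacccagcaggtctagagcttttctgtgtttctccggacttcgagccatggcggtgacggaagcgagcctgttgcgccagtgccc
CHEK1: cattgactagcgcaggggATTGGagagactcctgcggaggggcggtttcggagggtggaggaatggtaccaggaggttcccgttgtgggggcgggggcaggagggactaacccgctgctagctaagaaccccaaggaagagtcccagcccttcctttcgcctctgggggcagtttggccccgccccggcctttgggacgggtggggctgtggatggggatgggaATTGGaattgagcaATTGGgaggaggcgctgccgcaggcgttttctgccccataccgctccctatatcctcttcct
BARD1: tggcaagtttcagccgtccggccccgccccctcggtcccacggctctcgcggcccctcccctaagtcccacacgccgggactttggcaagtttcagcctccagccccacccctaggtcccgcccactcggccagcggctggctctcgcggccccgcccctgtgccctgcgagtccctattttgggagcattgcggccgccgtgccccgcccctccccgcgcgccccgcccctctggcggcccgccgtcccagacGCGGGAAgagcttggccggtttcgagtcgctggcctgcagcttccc
XRCC2: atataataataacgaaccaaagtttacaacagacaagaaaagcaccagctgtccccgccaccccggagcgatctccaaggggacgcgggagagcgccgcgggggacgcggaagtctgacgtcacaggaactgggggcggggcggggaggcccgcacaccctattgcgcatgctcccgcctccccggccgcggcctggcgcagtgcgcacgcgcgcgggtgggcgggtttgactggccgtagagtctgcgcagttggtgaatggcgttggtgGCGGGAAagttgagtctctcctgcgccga

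E2F-type letters were frequent among the members. Of the 32 members with a window, 21 (65.6%) held at least 1 E2F-type match in any of their windows, against 13.1% of 27305 genes of the table and 20.4% of the 9789 genes that were both tested on the arrays and listed there. CHR letters stood in 4 of the 32 (12.5%), namely ATM, BRIP1, FANCC and UBE2T, against 19.5% of all genes in the table and 16.4% of those 9789. CCAAT stood in 17 of the 32 (53.1%, against 39.7% and 43.7%). Of the printed windows, that of CHEK1 holds 3 CCAAT matches and none of the E2F-type letters, whereas the one match in XRCC2 is TTCCCGC on the strand opposite to that printed, as in FANCE, CLSPN and BARD1. Overlapping matches are counted separately, as with a pair in TOPBP1. NBN, RAD54B and FANCI have no window in the table. A match is a run of letters, and these shares carry no test and no statement about which factor binds.

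**Figure D1:**
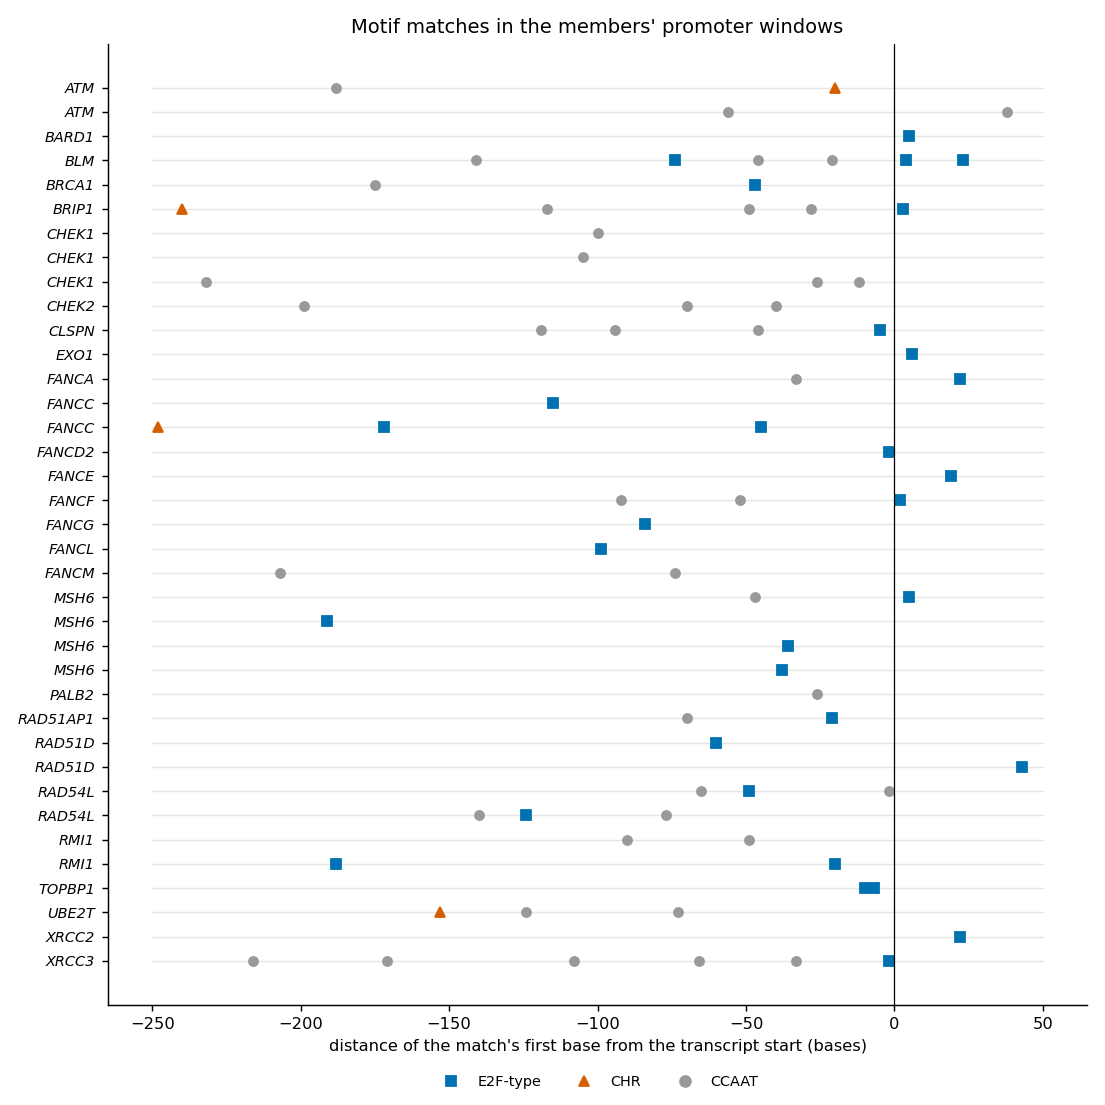
Motif matches in the promoter windows of the members, 1 row for each of the 37 windows with a match, named by gene. The horizontal axis gives the distance in bases of the match's first base from the transcript start, with E2F-type matches as squares, CHR as triangles and CCAAT as circles. E2F-type squares appear in windows of 21 genes, and CHR triangles in those of 4.

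With 7l, most of the tested members lay a little lower than in control cells and none passed the test across all genes. Of the 28 tested members, 23 had a negative log2 change (82.1%, beside 48.9% of all genes) and 5 a positive one, and the median change was -0.11, beside 0.01 over all 12334 genes. By limma with Benjamini-Hochberg adjustment over all genes, 0 members were called in either direction at an adjusted p under 0.05, where 2.38% of all genes were called (1.16% lower and 1.22% higher). At an unadjusted p under 0.05 limma gave 6 members lower and 0 higher (9.72% and 10.8% of all genes). In the RNA of whole cultures, fewer cells of a kind and less RNA per cell cannot be told apart.

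The arrays themselves separated more often toward lower values. In 9 of the 28 members (32.1%) all 3 treated arrays lay below all 3 control arrays, beside 13.8% of all genes tested (28.9% in either direction). In 1 member (3.57%), XRCC2, they all lay above, beside 15.1% of all genes. The 9 were FANCE, MSH6, CLSPN, FANCL, CHEK1, BARD1, NBN, TOPBP1 and RMI1. Per array, the members' median distance from the control mean was 0.00, 0.02 and -0.03 on the control arrays and -0.15, -0.17 and -0.12 on the treated arrays. The control arrays sit near 0 here by construction, since their own mean is the reference. This median restates the members' lower values per array and is no separate test.

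**Figure D2:**
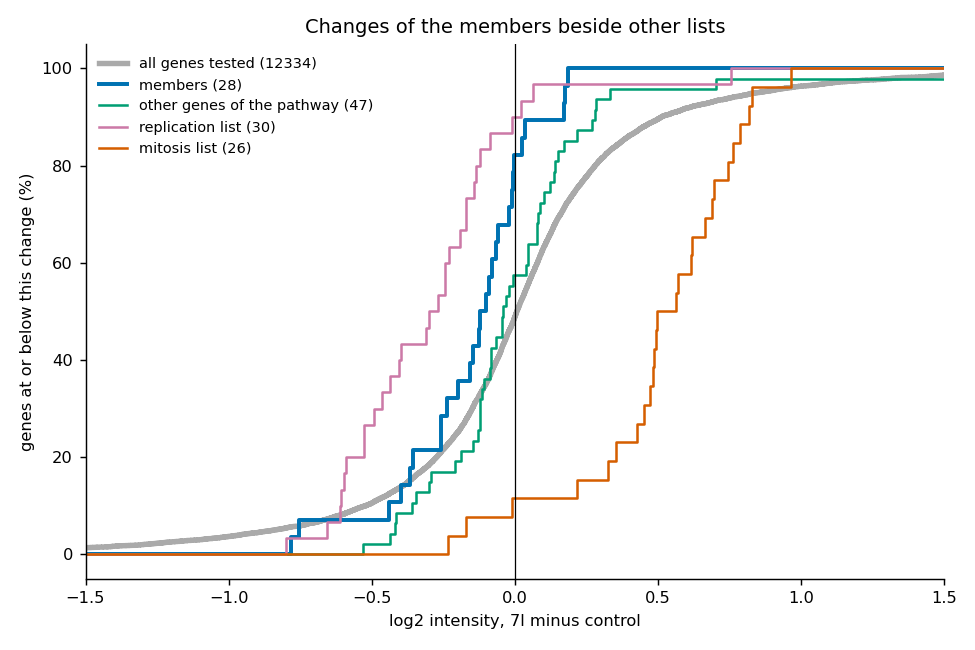
Share of genes (vertical axis, %) at or below a given log2 change, 7l minus control (horizontal axis), for the 28 tested members, the 47 tested other genes of the pathway, replication and mitosis lists of 30 and 26 tested genes, and all 12334 genes. The members' curve runs left of that of all genes through the middle of its range, with a median of -0.11, and ends at 0.19.

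Whether single members are called varied with the variance prior, the intensity filter and the offset. The default prior of limma had 1.24 degrees of freedom, so that each gene was judged almost by its own 6 values. With a trended and robust prior, 6 members were called lower and 0 higher, where 6.59% and 7.21% of all genes were called. These were FANCE, MSH6, FANCL, CHEK1, NBN and CLSPN. With the default prior and no filter, 2 of 31 members were called lower, beside 205 of 20046 genes. A filter at log2 4 gave 4 of 26 members, beside 488 of 8845 genes. An offset of 16 gave 3 of 28 members, beside 339 of 12334 genes. Over 16 alternative settings FANCE and MSH6 were called in 4, CLSPN in 3, FANCL in 2, and CHEK1 and NBN in 1 each, and in no setting was any of the 28 called higher. With the default prior and any 1 array left out, 0 members were called, and the calls over all genes fell to between 6 and 15 higher and 0 and 18 lower.

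The Fanconi core complex held the member with the smallest p-value. FANCE, the subunit that links the complex to FANCD2, read 9.07, 9.12 and 8.97 on the control arrays and 8.63, 8.65 and 8.56 on the treated arrays (log2 intensity). The groups did not overlap, and the gap between them was wider than either group's own range. Its mean went from 9.05 ± 0.08 to 8.61 ± 0.05 (SD, n = 3 each), a log2 change of -0.44 ± 0.08 (SE), 1.36-fold lower (limma adjusted p = 0.0590, and 4.66e-05 with the trended and robust prior). FANCL, the ubiquitin ligase of the complex, read 8.05, 7.92 and 7.99 in control and 7.71, 7.49 and 7.68 in treated cells. All treated arrays were again lower, with a log2 change of -0.36 ± 0.09 (limma adjusted p = 0.116, and 0.00429 with the other prior).

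A second, dimmer FANCL probe lay lower too, at 4.45, 3.89 and 4.45 in control and 3.26, 2.36 and 3.70 in treated cells. Its log2 change was -1.16 ± 0.39, and 1 of its treated arrays fell under the level of unexpressed genes (log2 2.56, the 95th percentile of 585 probes for keratin-associated proteins and for olfactory or taste receptors). The groups of the other tested core subunits overlapped. FANCG measured -0.01 ± 0.11 and FANCC, a dim signal, -0.09 ± 0.24. UBE2T, the ubiquitin-conjugating enzyme that works with FANCL, read 9.31, 9.58 and 9.45 in control and 9.56, 9.73 and 9.58 in treated cells. Its groups overlap, and the change of 0.17 ± 0.10 had a limma adjusted p of 0.411. FANCF (0 to 2.21 over the 6 arrays) and FANCM (0 to 2.11) were under the filter and not above the level of unexpressed genes on any array.

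FANCI, the ubiquitinated partner of FANCD2, measured -0.06 ± 0.13, with a control array at 8.61 and all 5 others between 8.21 and 8.35. BRIP1, the helicase that binds BRCA1, spread from 1.98 to 4.24 in control cells and carries no usable change (-0.15 ± 0.70, 95% interval from -1.92 to 1.62).

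Among checkpoint genes the mediators and CHEK1 lay lower. CLSPN, the adaptor between ATR and CHEK1, read 5.10, 4.75 and 4.87 in control cells and 4.44, 3.97 and 4.05 in treated cells. Its groups did not overlap, and its change of -0.75 ± 0.17 (SE, n = 3 each), 1.69-fold, had a limma adjusted p of 0.0890, and of 0.0470 with the trended and robust prior. The gene is dim, and with 16 added to all intensities its change was -0.44. CHEK1, the kinase that holds back S phase and mitosis, read 9.51, 9.55 and 9.45 in control and 9.37, 9.15 and 9.21 in treated cells, a change of -0.26 ± 0.08 (limma adjusted p = 0.182, and 0.0143 with the other prior). All its treated arrays were below control, the nearest treated array by less than the range of the treated group.

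TOPBP1, the activator of ATR, also had its arrays apart, at 8.70, 8.61 and 8.78 in control and 8.48, 8.43 and 8.58 in treated cells. Its change was -0.20 ± 0.08 (limma adjusted p = 0.259). The kinases of the break response did not separate, since ATM measured -0.12 ± 0.11 and CHEK2 0.19 ± 0.11, each with overlapping groups. A further ATM probe measured -0.30 ± 0.13 and a further CHEK2 probe 0.20 ± 0.13, in the same direction as the probe kept for each. ATR lay near the level of unexpressed genes, from 1.24 to 3.53 over the 6 arrays, and its interval ran from -2.13 to 0.57. No direction is read for it.

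Of the mediators of recombination, BARD1 lay lower on all treated arrays, while the groups overlapped at PALB2 and at the brighter BRCA1 probe. BARD1 read 8.18, 8.07 and 8.19 in control and 7.87, 7.84 and 8.03 in treated cells. The groups were apart by a small gap, and the change of -0.24 ± 0.08 had a limma adjusted p of 0.210. PALB2 measured -0.12 ± 0.08 with overlapping groups, and the brighter BRCA1 probe measured -0.01 ± 0.07, with a 95% interval from -0.20 to 0.17, inside 1.5-fold either way. The dimmer BRCA1 probe read 5.57, 5.71 and 5.68 in control and 5.94, 6.09 and 5.95 in treated cells. All its treated arrays were higher, by 0.34 ± 0.09, without passing when each of 16594 probes was tested on its own (limma adjusted p = 0.134). The BRCA1 probes are annotated to different transcripts, and with both averaged BRCA1 measured 0.16.

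Most recombination cofactors and motor proteins measured near 0. XRCC2 read 8.87, 9.02 and 9.05 in control and 9.08, 9.19 and 9.17 in treated cells. These groups did not overlap, but the gap was smaller than the range of either, and the change of 0.17 ± 0.08 had a limma adjusted p of 0.326. A dim XRCC2 probe measured 0.51 ± 0.62 with overlapping groups. RAD51C measured -0.02 ± 0.10, RAD51AP1 -0.0017 ± 0.08, RAD54L -0.08 ± 0.08 and RAD54B 0.02 ± 0.13, each with overlapping groups. XRCC3, at -0.07 ± 0.24, spread too widely to be bounded within 1.5-fold. Of the other RAD51C probes above the filter, 1 lay below control on all treated arrays (-0.24 ± 0.11) and 1 did not (-0.07 ± 0.09).

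The 3 RAD51D probes differed from each other. The brightest measured -0.40 ± 0.25 with overlapping groups. The next measured 0.11 ± 0.18. The dimmest read 3.17, 2.76 and 3.05 in control cells and was not above the level of unexpressed genes on any treated array (1.76, 1.20 and 0.40), which makes it at least 1.35-fold lower with 7l (limma adjusted p = 0.0862 with each probe tested on its own). No direction for the gene follows from probes that differ in this way.

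**Figure D3:**
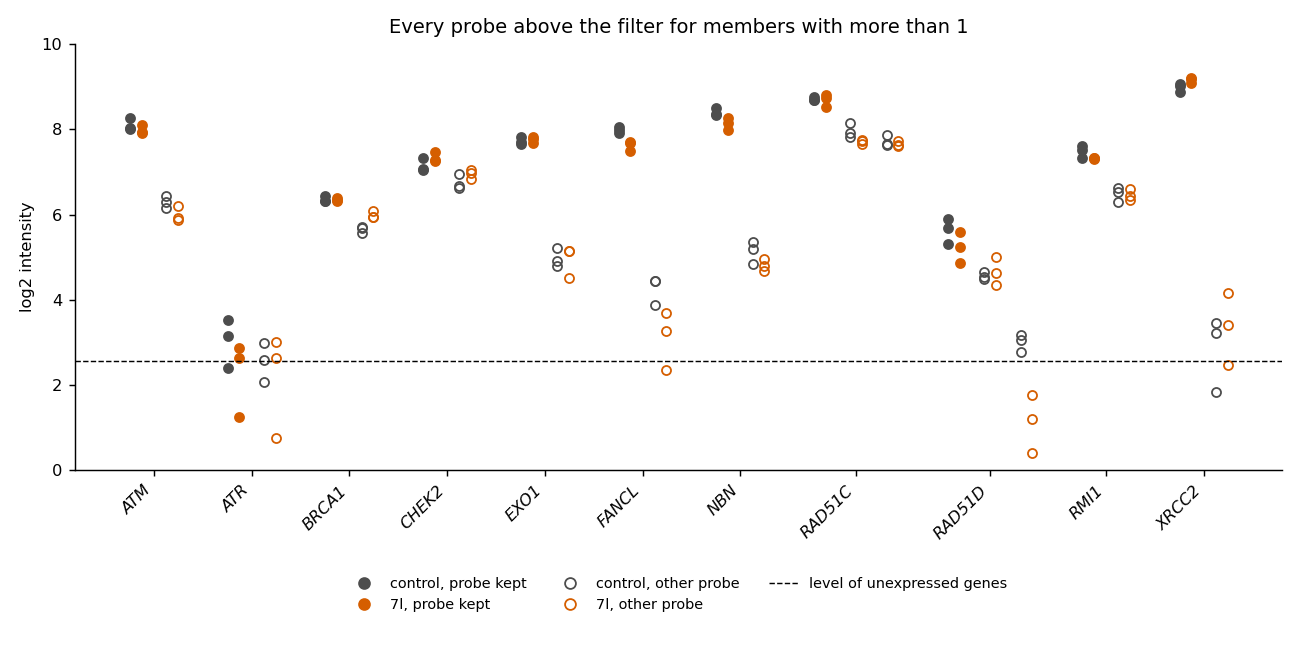
Log2 intensity (vertical axis) of every probe above the filter for the 11 members with more than 1 such probe. Each point is an array, grey for control and orange for 7l, filled for the probe kept for the gene, and the dashed line is the level of unexpressed genes (2.56). Both FANCL probes lie lower with 7l, the BRCA1 probes differ, and the dimmest RAD51D probe drops under the line.

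Across the 11 members with a further probe above the filter, 10 of the 13 further probes had the sign of the probe kept. The exceptions were 1 probe each of BRCA1, EXO1 and RAD51D. Of all 52 probes, 35 lay above the level of unexpressed genes on all 6 arrays, 10 on none, and 3 sat at the floor on all 6. The RAD50 probe is one of the last, so this gene of the MRE11 complex has no measured level here.

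At DNA ends, NBN, the subunit that recruits ATM to breaks, lay lower on all treated arrays, while the groups of EXO1, a resection nuclease, overlapped. NBN read 8.34, 8.49 and 8.35 in control and 8.15, 7.98 and 8.27 in treated cells, a change of -0.26 ± 0.11 (limma adjusted p = 0.257, and 0.0372 with the trended and robust prior). Its groups are apart by less than the spread within the treated arrays. A dimmer NBN probe measured -0.32 ± 0.16 with overlapping groups. EXO1 measured 0.03 ± 0.08. In the complex that dissolves joined chromatids, RMI1 measured -0.16 ± 0.09 with groups that barely separated (7.33 on the nearest control and treated arrays) and a second probe at -0.02 ± 0.12, and the helicase BLM -0.10 ± 0.16.

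MSH6, which recognises mismatched bases, belongs to a neighbouring repair pathway. It read 9.75, 9.75 and 9.66 in control cells and 9.32, 9.32 and 9.42 in treated cells. The gap between the groups exceeded the range of each. The change of -0.37 ± 0.07, 1.29-fold lower, had a limma adjusted p of 0.0709, and of 0.000242 with the trended and robust prior.

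**Figure D4:**
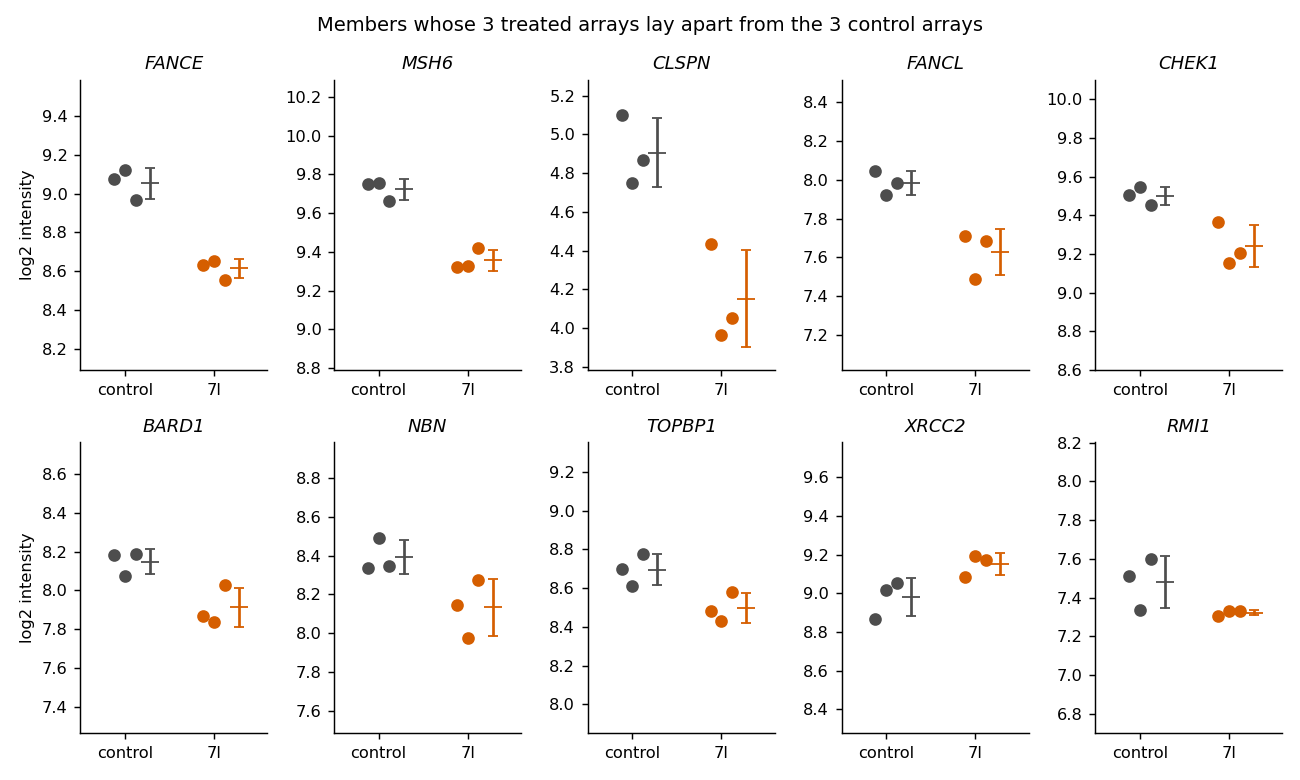
Log2 intensity (vertical axis) on each array for the 10 members whose treated and control arrays did not overlap, ordered by p-value. Points are arrays, with the mean and SD (n = 3) beside them, and every panel spans 1.5 log2 units. FANCE, MSH6 and CLSPN show the widest gaps, and XRCC2 is the 1 member that lies higher with 7l.

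The intervals say how large an undetected change could be. For 21 of the 28 members (48.8% of all genes) the 95% interval of the log2 change lay inside 1.5-fold either way, and for 24 (68.7% of all genes) inside 2-fold. The members outside 2-fold were ATR, BRIP1, CLSPN and RAD51D. FANCE, FANCC and XRCC3 were bounded within 2-fold only, FANCE because its interval reaches -0.63. Of the 28 intervals, 6 lay wholly below 0 and 0 above it.

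**Figure D5:**
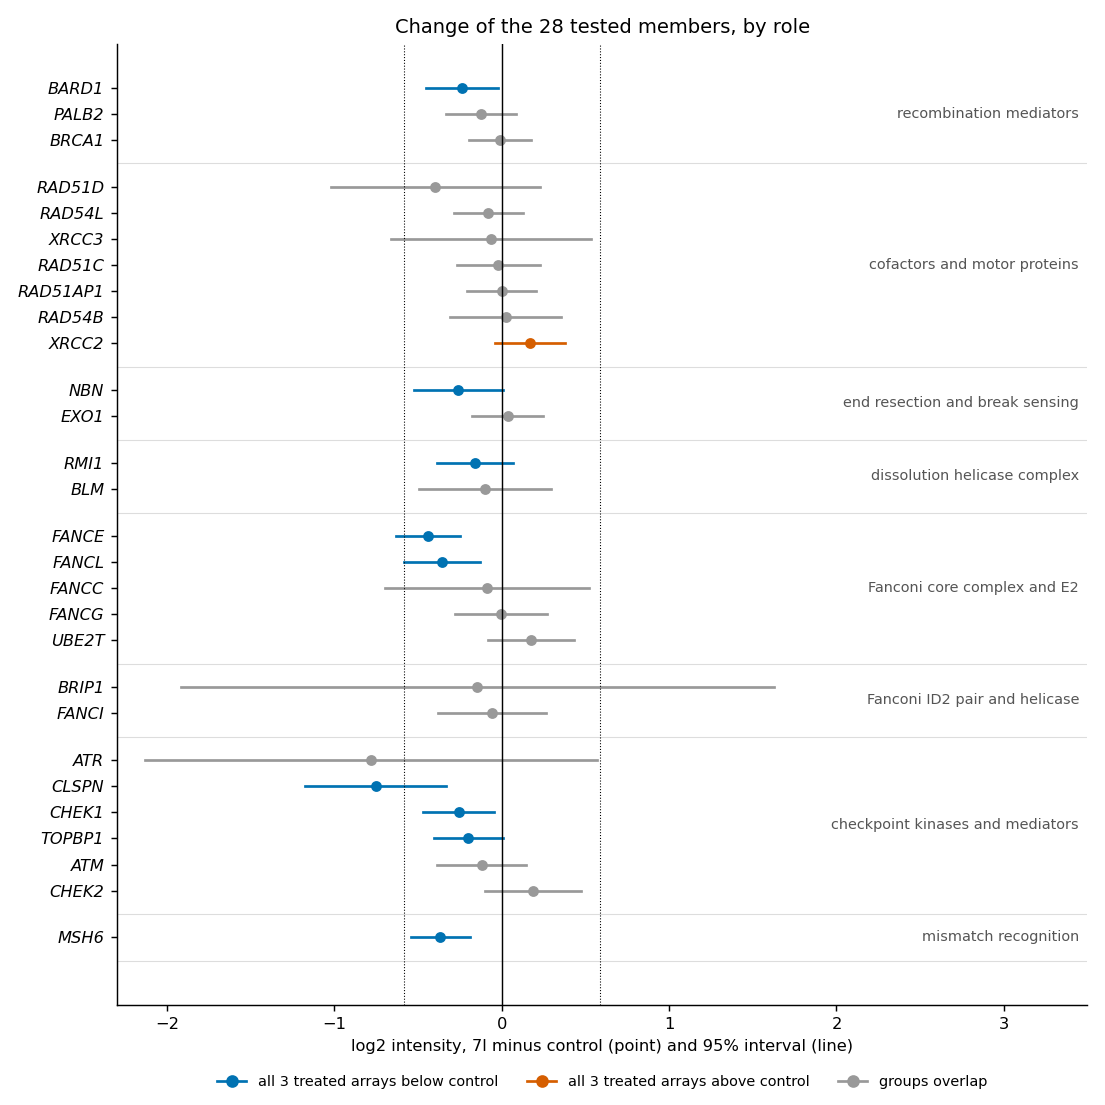
Log2 change, 7l minus control (point), with the 95% interval of the limma fit (line), for the 28 tested members grouped by role. Dotted lines mark 1.5-fold, and colour shows whether the arrays of the groups overlap. The wide lines of BRIP1 and ATR belong to dim probes, and the interval of CLSPN, from -1.17 to -0.34, is the one furthest below 0.

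A further 51 genes of the same pathways gave 47 tested genes, of which limma called 0. At an unadjusted p under 0.05 limma gave 3 higher and 5 lower (10.8% and 9.72% of all genes). The median change of the 47 was -0.04, with 27 (57.4%) negative, beside 48.9% of all genes. In 8 (17%) all treated arrays lay below control, beside 13.8% of all genes, and in 4 (8.51%) above, beside 15.1%. The gene with the smallest p lay higher. CDC25B, the phosphatase that opposes the checkpoint at mitotic entry, went from 7.70 ± 0.20 to 8.40 ± 0.08 (SD, n = 3 each), a change of 0.70 ± 0.12 (limma adjusted p = 0.0606). RMI2, the partner of RMI1, measured -0.53 ± 0.09 (limma adjusted p = 0.0607). TP53BP1, which shields DNA ends from resection, measured -0.36 ± 0.10, and MRE11, the nuclease that binds NBN and RAD50, -0.43 ± 0.12. Neither passed with the default prior (limma adjusted p = 0.130 and 0.134). With the trended and robust prior 1 of the 47 was called higher and 6 lower (7.21% and 6.59% of all genes). The 1 higher was CDC25B (limma adjusted p = 2.23e-07 with that prior). Those lower included RMI2, MRE11 and TP53BP1 (limma adjusted p = 3.88e-06, 0.002045 and 0.0165 with that prior).

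Among 8 tested genes of end joining, the alternative route of break repair, limma also called 0. At an unadjusted p under 0.05 limma gave 1 lower, PRKDC (-0.34 ± 0.12), beside 9.72% of all genes. The limma adjusted p of PRKDC was 0.209, and 0.00279 with the trended and robust prior. The median of the 8 was -0.09, with 7 (87.5%) negative, beside the same 48.9% of all genes.

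The members sat between lists of replication and mitosis genes on the same arrays, for which no test of the difference was made. In a list of 30 tested replication genes the median was -0.29. Of these, 5 were called lower and 20 (66.7%) were apart toward lower values, beside 1.16% and 13.8% of all genes. In a list of 26 tested mitosis genes the median was 0.53. Of these, 8 were called higher and 22 (84.6%) were apart toward higher values, beside 1.22% and 15.1% of all genes. The part of cell cycle phase in the members' changes was not tested. Within the members, the 18 tested genes with E2F-type letters in a window had a median of -0.12 with 7 apart toward lower values. The 7 tested genes with a window lacking these letters had a median of -0.12 with 1 apart (CHEK1). Over all genes 13.8% were apart toward lower values, and no test compared the members with and without the letters.

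Of 8 markers listed for KG1a and immature myeloid cells, 6 were above the level of unexpressed genes on all arrays. CD34 read 11.44 to 11.48 in control and 11.15 to 11.33 in treated cells, and CD7, ANPEP, SPN, MYB and PTPRC were above the level of unexpressed genes on all 6 arrays, whereas KIT was on 2 and FGFR1 on 0. Summed intensity of the 8 markers was 6746 to 6875 in control and 5716 to 6001 in treated cells. This sum is on the linear scale and weighs the brightest markers most, and the markers did not move together. MYB read 10.869 to 10.995 in control and 10.347 to 10.461 in treated cells. ANPEP lay higher, at 8.283 to 8.525 in control and 8.559 to 8.682 in treated cells, and the groups of CD7, SPN and PTPRC overlapped. Of 4 T cell markers CD3D was bright (11.59 to 11.62 in control and 10.78 to 11.04 in treated cells). CD3E was above the level of unexpressed genes on 0 arrays, CD8A on 1 and CD3G on 2. The T cell sum was 3081 to 3157 in control and 1769 to 2108 in treated cells. B cell marker sums were 32.4 to 36.5 in control and 15.6 to 31.5 in treated cells. Among these markers CD79A was above the level of unexpressed genes on 6 arrays, MS4A1 on 5 and PAX5 on 0. The sums in control and treated cells were 22.8 to 30.5 and 26.3 to 40.7 for monocyte and granulocyte markers. They were 4.58 to 19.7 and 3.42 to 11.3 for erythroid markers, and 22.6 to 32.3 and 21.5 to 26.2 for stromal and epithelial markers. In these last groups CD14 and COL1A1 were above the level of unexpressed genes on all 6 arrays, and the other markers measured on fewer. The part of these shifts in the members' values was not tested.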

How the data were processed

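RNA of KG1a cells was measured on 6 Illumina bead arrays, 3 of cells given 7l and 3 of control cells, grouped by sample titles. Replicate numbers are those of the titles, since the samples' descriptions give 1 number to all control samples and another to all 7l samples. Members and lists were chosen with earlier results of these data known. The deposited values are probe intensity on a linear scale from 1 to 10984. How the authors corrected background and normalized is not given in the sources used here, but 97.8% of sorted ranks are equal across arrays (within 0.0001), so a shift of all transcripts cannot be seen. Median intensity was 4.95 on every array, with 32.7% to 34.2% of probes at 1. Precision is limited by the 3 arrays a group. Across probes with a mean above log2 6, Pearson's r was 0.993 to 0.995 between arrays of a group and 0.982 to 0.983 between groups.

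Of 47322 probes, 30113 carry 1 symbol in the platform table. Values were log2 transformed without further normalization. Each gene was represented by its brightest probe, and genes above the median of probe means (log2 1.76) were tested across all genes with limma 3.58.1 in R 4.3.3 (lmFit and eBayes, default prior, two-sided, a single group term leaving 4 residual degrees of freedom) and Benjamini-Hochberg adjustment. Intervals are 95% intervals of that fit. The fit was tested on simulated data. Alternatives were other normalizations, filters, probe rules, priors, weighting of arrays, adding 16 to intensities, blocking on replicate number and omitting each array. Members with full statistics are those called, those whose arrays do not overlap with a change of at least 0.3, and the 6 with the smallest p. Values of further pathway genes are given for the 4 with the smallest p. PRKDC and the array values of TOPBP1, NBN, XRCC2, UBE2T, FANCI and the further probes were added after their values were seen. Promoter letters came from the RefSeq table on GRCh38.p14. Figures were drawn with matplotlib 3.10.9.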

Additional observations from a re-analysis of the deposited data

How the results depend on the processing

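The median change of the members kept its negative sign in all 16 alternatives, from -0.16 to -0.08, and 0 members were called higher in any. Members called lower numbered 2 without the intensity filter (FANCE and MSH6), 3 with an offset of 16, 4 with a filter at log2 4 and 6 with the trended and robust prior, and 0 in the others. With an array left out the median ran from -0.16 (without 7l replicate 3) to -0.0817 (without 7l replicate 2). Members apart toward lower values then ran from 9 to 12, and toward higher values from 1 to 2 (2 without control replicate 2 or 3). When probes were averaged, 2 members were apart toward higher values. Groups separate more easily with fewer arrays, and the shares of all genes apart were not computed for these settings. Over all genes, 150 higher and 143 lower became 232 and 205 of 20046 without the filter, and 571 and 488 of 8845 with the filter at log2 4. Of 12334 genes, 889 and 813 were called with the trended and robust prior and 385 and 339 with the offset. With an array left out, 6 to 15 were called higher and 0 to 18 lower. Same-numbered arrays of both groups deviated with correlations of -0.06, 0.10 and 0.04, and 2 of the 6 arrays correlated best with their own number, so the numbers are not taken as pairs. With the replicate block 0 genes were called in either direction, and 0 members. The intensity filters test fewer or more genes, and omitting an array leaves fewer samples. The cause of the other shifts was not tested. Members near 0 changed sign. With all probes averaged BRCA1 measured 0.16, RAD51C 0.0022 and RAD54B -0.28, and with array weights RAD51AP1 measured 0.0124. With an array left out the changes ran from -0.0362 to 0.0305 for BRCA1, -0.0778 to 0.0619 for RAD51C, -0.0412 to 0.05 for RAD51AP1, -0.25 to 0.15 for XRCC3, -0.10 to 0.12 for RAD54B, -0.0059 to 0.0842 for EXO1, -0.24 to 0.15 for FANCC, -0.0565 to 0.0761 for FANCG, -0.14 to 0.0665 for FANCI and -0.89 to 0.24 for BRIP1. Signals near the level of unexpressed genes limit what can be said of ATR, BRIP1 and RAD51D.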
